A study of Mus musculus with 6 samples.

Results

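The genes described here are 7 components of the Wnt, Hedgehog and Notch pathways, Fzd8, Tspan12, Wnt2, Wnt16, Smo, Mib1 and Ankrd6, taken by their Ensembl identifiers from a table of 53647 features. They were measured by RNA sequencing in D2.OR, a mouse mammary carcinoma line studied for the dormancy of tumour cells that have spread. One group, shSLX4IP (n = 3), carried a lentiviral short hairpin RNA against Slx4ip, whose product binds the nuclease scaffold SLX4. The other, Scram (n = 3), carried a lentiviral scrambled hairpin. Both groups were selected with puromycin and grown on a basement membrane extract for 7 days, and the question was what loss of SLX4IP does to gene expression. The labels describe a single targeting hairpin, and a second one was not analysed here. They call the replicates biological without saying that they came from separate cultures, so the p-values measure the spread between these samples, which may be technical.

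Wnt ligands bind Frizzled receptors at the cell surface and act through Dishevelled either on beta-catenin or on cell polarity. Hedgehog ligands bind Patched and so release Smoothened, which acts on the Gli transcription factors. Notch receptors are cleaved and move to the nucleus after a ligand on the neighbouring cell pulls on them, and the ligand must be ubiquitinated and endocytosed for this. All 3 pathways take part in mammary gland development and in breast cancer.

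The deposited values are read counts divided by a size factor for each library and are called normalised read counts below. Each library held between 5433573 and 6693111 reads. The table can be read by gene name in part only. Slx4ip itself was listed at 0 in each of the 6 libraries and gave no check of the labels, and Actb and Eef1a1, which every cell uses, were listed at 0 as well. Gene names are therefore used only in 4 stretches of chromosomes 4, 6, 15 and 18 in which highly counted protein-coding genes lay close together, here called the readable stretches. They hold 569 protein-coding genes of the table, of which 148 were listed at 0 in all 6 libraries. The 7 genes lie inside them. None of 11 marker genes of epithelial, mesenchymal, blood and vascular cells did (0 of 11), so the cell type in the labels could not be checked.

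Among the 7 genes, 2 fell, 2 rose, 1 did not pass the test, and 2 were listed at 0 in every library. Of all features tested 23.0% passed, and of those in the readable stretches 41.1%. The Wnt receptor gene Fzd8 and the tetraspanin gene Tspan12 fell to no read and to a few reads in shSLX4IP cells. Ankrd6, which encodes an intracellular Wnt component, and Smo, the Hedgehog signal transducer, rose. Both lost the call when any 1 shSLX4IP library was left out. Mib1, the ubiquitin ligase of Notch ligands, had overlapping values, and the ligand genes Wnt2 and Wnt16 had no read.

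The test was limma on log2(value + 1) over the 8127 features with a mean of at least 10, with Benjamini-Hochberg adjustment over all of them and a threshold of 0.05. A log2 fold change is shSLX4IP over Scram on that scale and understates the change of low genes. Of the 7 genes, 5 reached the mean of 10, and 4 of these passed. Among all features tested 23.0% passed, 11.7% as higher and 11.3% as lower in shSLX4IP, and 41.1% passed among the 431 in the readable stretches. The groups did not overlap in 4 of the 5, against 53.5% of all features tested and 67.5% of those in the readable stretches. Fzd8 reached the mean of 10 through Scram alone, so that these counts support nothing by themselves. The median log2 fold change was 0.31 over the 5 genes, which is the value of Mib1. It was 0.25 over all features tested and -0.15 over those in the readable stretches. With 3 samples against 3, the exact 2-sided permutation test of a single gene cannot give a p below 0.1. This exact test gave p = 0.1 for Fzd8, Tspan12, Ankrd6 and Smo and p = 0.4 for Mib1.

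**Figure D1:**
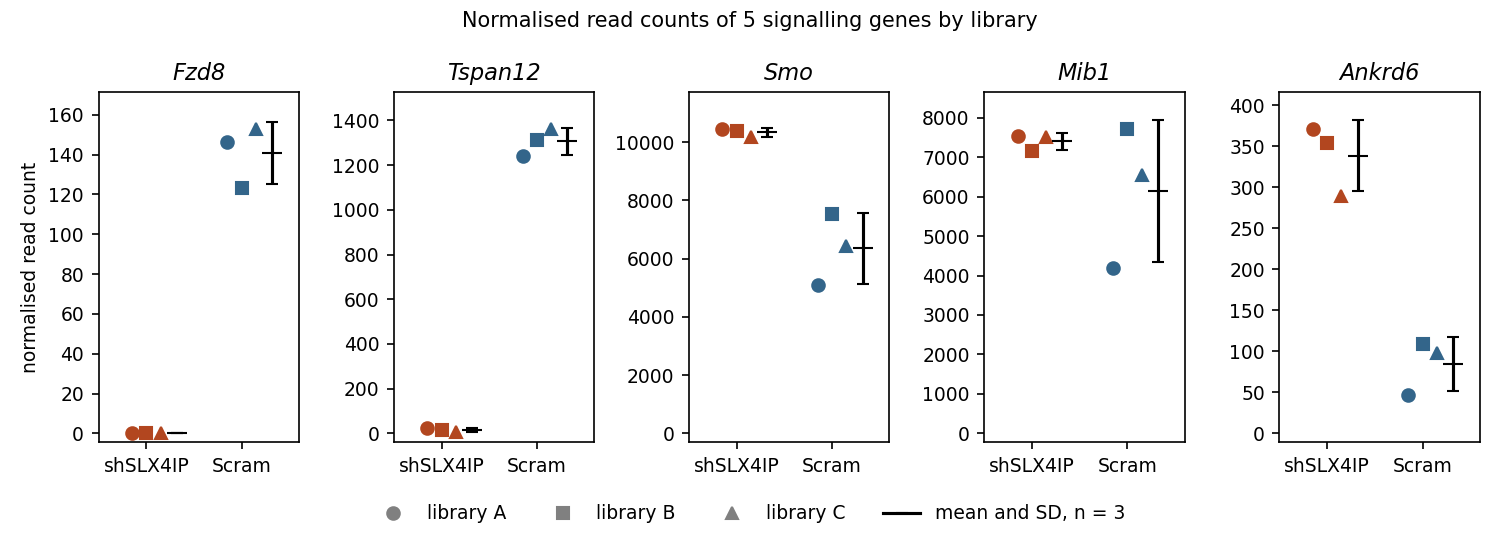
Normalised read counts (vertical axes, each from 0) of 5 genes in the 3 shSLX4IP and the 3 Scram libraries. Symbols are single libraries and bars are the mean and SD. Fzd8 and Tspan12 lie near 0 in shSLX4IP, Smo and Ankrd6 lie higher there than in every Scram library, and the Mib1 values overlap.

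At the receptor level of the Wnt pathway, Fzd8 encodes a 7-pass Frizzled receptor whose extracellular cysteine-rich domain binds Wnt proteins. It is a gene of a single exon block of 5974 bases (ENSMUSG00000036904.7, GRCm38 chromosome 18, 9212163 to 9218136, plus strand). Fzd8 was listed at 0 in shSLX4IP A, B and C, and had 146, 123 and 153 normalised reads in Scram A, B and C. In whole reads, Scram A, B and C held 100, 132 and 168. Every Scram library thus held at least 100 reads of the gene and no shSLX4IP library held any. A count of 0 allows up to 3 reads in a library, worth 2.68 normalised reads on average in shSLX4IP, and set against that limit per library Fzd8 was at least 52.6-fold lower. The limma adjusted p was 0.000464, but Fzd8 reached the mean needed for the test through Scram alone. This p-value therefore supports nothing by itself. The fitted log2 fold change, -7.14, depends on the constant added before the logarithm and was -8.14 with 0.5 and -4.86 with 5 in its place. In bulk RNA, fewer cells that express a gene and less RNA per cell cannot be told apart.

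Tspan12 encodes a tetraspanin that associates with Frizzled-family receptors and strengthens norrin signalling, known best from the vessels of the retina. The gene has 10 exon blocks with 3311 bases (ENSMUSG00000029669.15, chromosome 6, 21771395 to 21852515, minus strand). Tspan12 had 21.7, 13.7 and 5.57 normalised reads in shSLX4IP A, B and C, against 1240, 1313 and 1364 in Scram A, B and C. These were 24, 14 and 7 whole reads in shSLX4IP and 847, 1406 and 1496 in Scram. All 3 shSLX4IP libraries stood far below all 3 Scram libraries. On the linear scale the mean fell to 13.7 ± 8.08 in shSLX4IP, against 1306 ± 62.0 in Scram (SD, n = 3 each), a 95.6-fold difference. Limma gave a log2 fold change of -6.65 with a standard error (SE) of 0.48 and an adjusted p = 0.000810, and in the readable stretches 8 of the 431 features tested had a lower log2 fold change. A 98-base stretch of its exons is shared with Gm30270, an antisense transcript on the other strand, which had 0.906, 5.86 and 0 normalised reads in shSLX4IP A, B and C, against 0, 56.0 and 35.5 in the Scram libraries in the same order. The highest of these values was small beside Tspan12 in Scram, but the 5.86 of shSLX4IP B was not small beside the 13.7 of Tspan12 there. How far the shared bases enter the count of Tspan12 was not tested.

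The table of RefSeq promoters used here (GRCm38.p6) matched 5 of the 7 genes, Tspan12, Wnt2, Wnt16, Smo and Ankrd6. The 250 bases before the start are shown for the 3 of them that fell or rose. Capitals mark a match to GTGGGAA, the motif of the Notch effector RBPJ.
Tspan12, chr6:21852534-21852783, minus strand: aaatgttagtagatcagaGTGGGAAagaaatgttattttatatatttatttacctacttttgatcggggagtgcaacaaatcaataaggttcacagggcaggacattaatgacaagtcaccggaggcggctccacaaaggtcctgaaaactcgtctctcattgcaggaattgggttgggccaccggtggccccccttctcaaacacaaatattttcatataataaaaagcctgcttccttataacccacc
Smo, chr6:29735247-29735496, plus strand: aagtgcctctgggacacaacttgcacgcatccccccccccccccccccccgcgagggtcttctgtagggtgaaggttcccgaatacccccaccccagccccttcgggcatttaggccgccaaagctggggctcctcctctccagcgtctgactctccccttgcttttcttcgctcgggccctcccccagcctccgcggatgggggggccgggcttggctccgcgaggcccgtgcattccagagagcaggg
Ankrd6, chr4:32950827-32951076, minus strand: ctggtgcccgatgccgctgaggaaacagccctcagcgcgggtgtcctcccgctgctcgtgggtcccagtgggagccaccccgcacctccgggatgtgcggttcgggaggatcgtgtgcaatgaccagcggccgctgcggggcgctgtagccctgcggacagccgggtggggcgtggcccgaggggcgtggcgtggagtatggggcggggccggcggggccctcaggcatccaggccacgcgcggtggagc

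The promoter of Tspan12 had 42.0% G and C, against 68.4% in that of Smo. Ankrd6 has 3 starts, with 74.4% at the first, which is shown, and 56.0% and 60.8% at the others. Which of them is used in these cells was not tested. The motifs were searched on both strands in a window of 300 bases, 250 before and 50 after the start. They were CTTTGA of the TCF/LEF factors, CCACCCA of the Gli factors and GTGGGAA of RBPJ, found in 16.0%, 9.30% and 6.38% of all 32851 promoter windows of the table. The Tspan12 window held GTGGGAA on the strand of the gene, 232 to 226 bases before the start, and on the other strand at bases 5 to 11 after it. The windows of Smo and of the first Ankrd6 start held none of the 3 motifs, nor did those of Wnt2 and Wnt16. The last of the 3 Ankrd6 starts held CCACCCA on the other strand, 125 to 119 bases before it. A match describes the letters of the window and is not a site shown to be bound.

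The Wnt ligand genes gave no signal. Wnt2 (ENSMUSG00000010797.7, chromosome 6, 17988940 to 18030585), which encodes a ligand expressed in lung and mammary stroma, was listed at 0 in all 6 libraries. Wnt16 (ENSMUSG00000029671.16, chromosome 6, 22288227 to 22298522), a ligand gene known for its role in bone, was listed at 0 in all 6 as well. Neither was tested. A count of 0 allows up to 3 reads in a library, worth between 2.39 and 2.93 normalised reads in shSLX4IP and between 2.73 and 4.39 in Scram, so a level below that was not detectable at this depth.

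Inside the cell, Ankrd6 encodes diversin, an ankyrin repeat protein that binds casein kinase and Dishevelled, promotes breakdown of beta-catenin and takes part in planar cell polarity. The gene lies on chromosome 4 (ENSMUSG00000040183.14, 32804035 to 32950841, minus strand) with 18 exon blocks and 5477 exonic bases. Ankrd6 had 371, 354 and 290 normalised reads in shSLX4IP A, B and C, against 46.9, 108 and 97.5 in Scram A, B and C. The groups did not overlap, and Scram A was the lowest library. The mean rose to 339 ± 43.1 in shSLX4IP, against 84.2 ± 32.8 in Scram (SD, n = 3 each), 4.02-fold on the linear scale. The log2 fold change was 2.07 (SE 0.38, limma adjusted p = 0.0152) and was 1.70 without Scram A (adjusted p = 0.00166). The call was lost without any 1 of the shSLX4IP libraries, with adjusted p between 0.0602 and 0.0750 and a log2 fold change between 2.00 and 2.18.

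Smo, the 7-pass membrane protein that passes the Hedgehog signal on, was the most highly counted of the genes per length. The gene (ENSMUSG00000001761.8, chromosome 6, 29735503 to 29761365, plus strand) has 12 exon blocks and 5621 exonic bases. Smo had 10464, 10396 and 10163 normalised reads in shSLX4IP A, B and C, against 5105, 7533 and 6442 in Scram A, B and C. The shSLX4IP libraries were close to each other and all above the highest Scram library, while the Scram libraries were spread, with a coefficient of variation of 1.53% in shSLX4IP and 19.1% in Scram. The mean rose to 10341 ± 158 in shSLX4IP, against 6360 ± 1216 in Scram (SD, n = 3 each), 1.63-fold on the linear scale. Limma gave a log2 fold change of 0.72 (SE 0.17, 95% interval 0.31 to 1.13) and an adjusted p = 0.0321. The value was 0.57 without Scram A (adjusted p = 0.00577). Of 17 other settings 7 lost the call, such as leaving out Scram C (adjusted p = 0.0937) or any 1 shSLX4IP library (0.119 to 0.124), and no setting changed its direction. Ptch1 and Gli1, the usual transcriptional readouts of Smoothened activity, lie outside the readable stretches and are not read here.

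Mib1 encodes the RING ubiquitin ligase that marks the Notch ligands of the Delta and Jagged families for endocytosis. It has 21 exon blocks and 10937 exonic bases, the longest of the 7 genes (ENSMUSG00000024294.15, chromosome 18, 10725548 to 10818704, plus strand). Mib1 had 7545, 7158 and 7515 normalised reads in shSLX4IP A, B and C, against 4185, 7725 and 6536 in Scram A, B and C. Scram B was the highest of all 6 libraries and Scram A the lowest, so the groups overlapped. The log2 fold change was 0.31 with a 95% interval from -0.28 to 0.91 and did not pass (limma adjusted p = 0.368). Without Scram A it was 0.06 (adjusted p = 0.618), and with a trend with exonic length removed it was 0.02. Mib1 is the last gene of its readable stretch, whose end was set by its own high value, and the next protein-coding gene, Gata6, had no read in shSLX4IP, against 0, 6.54 and 3.65 normalised reads in Scram A, B and C.

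**Figure D2:**
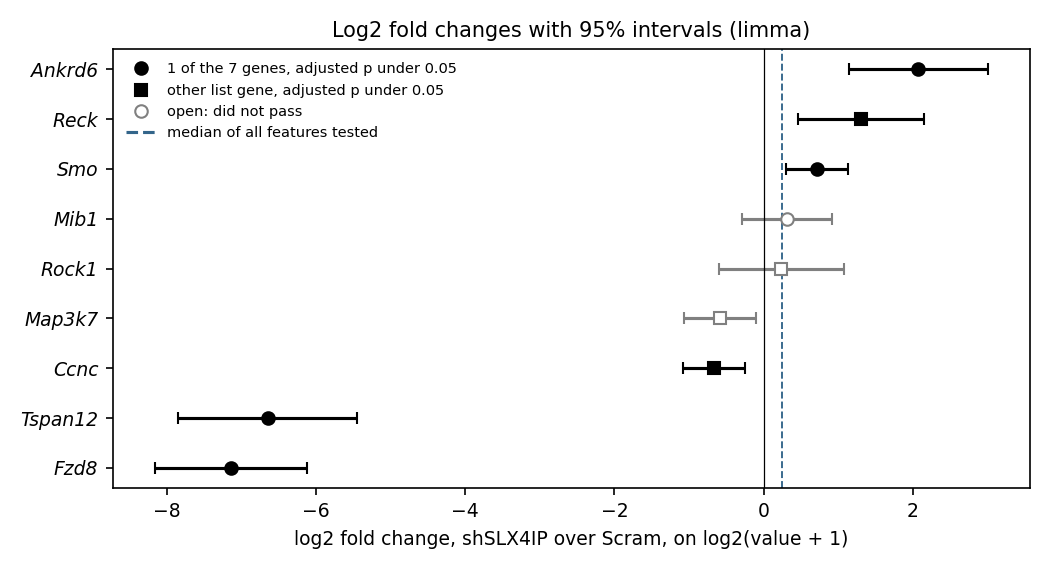
Log2 fold change, shSLX4IP over Scram, with its 95% interval from limma (horizontal axis) for 9 tested genes of the pathway list. Ankrd6, Reck and Smo lie to the right with intervals above 0, and Ccnc, Tspan12 and Fzd8 to the left with intervals below 0. Map3k7 did not pass, though its interval, from -1.06 to -0.10, also lies below 0. The position of Fzd8, listed at 0 in shSLX4IP, depends on the added constant.

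The order of the genes by level changed between the groups. Per kilobase of exon, the normalised read count in shSLX4IP was 1840 ± 28.1 for Smo, 677 ± 19.7 for Mib1, 61.8 ± 7.86 for Ankrd6 and 4.13 ± 2.44 for Tspan12, with Fzd8 at 0 (SD, n = 3 each). In Scram it was 1131 ± 216 for Smo, 562 ± 165 for Mib1, 394 ± 18.7 for Tspan12, 23.6 ± 2.62 for Fzd8 and 15.4 ± 5.99 for Ankrd6 (SD, n = 3 each). Ankrd6 thus stood above Tspan12 and Fzd8 in shSLX4IP and below both in Scram. The order of Fzd8 and Ankrd6 in Scram was narrow in 1 library. Per kilobase they were at 24.5 and 8.56 in Scram A, 20.6 and 19.8 in Scram B, and 25.6 and 17.8 in Scram C. In Scram B these were 132 and 116 whole reads. In Scram the levels of Mib1 (383 to 706 per kilobase) and Tspan12 (375 to 412) overlapped, and the other neighbours in either order did not.

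Scram A stood apart from Scram B and C, and the genes above differed in how far. As a library it had 8464 features above 0, against 10947 in Scram B and 10548 in Scram C. Scram A held 6110599 whole reads, Scram B 6112569 and Scram C 6554748. The normalised reads summed to 8948118 in Scram A, 5710072 in Scram B and 5974334 in Scram C. A single read was worth 1.46 normalised reads in Scram A, 0.934 in Scram B and 0.911 in Scram C. What sets Scram A apart was not tested. On a log2 scale, Scram A over the average of its 2 fellow libraries was 0.08 for Fzd8 and -0.11 for Tspan12, and -0.45 for Smo, -0.77 for Mib1 and -1.12 for Ankrd6. Its median was 0.06 over the 353 genes of the readable stretches whose mean reached 100, and 5.10% of them had a lower ratio than Ankrd6. Without Scram A, Smo and Ankrd6 kept their direction and passed, while the count of all features called rose from 1872 to 3468. Both genes lost the call without any single shSLX4IP library, and Smo also without Scram C.

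**Figure D3:**
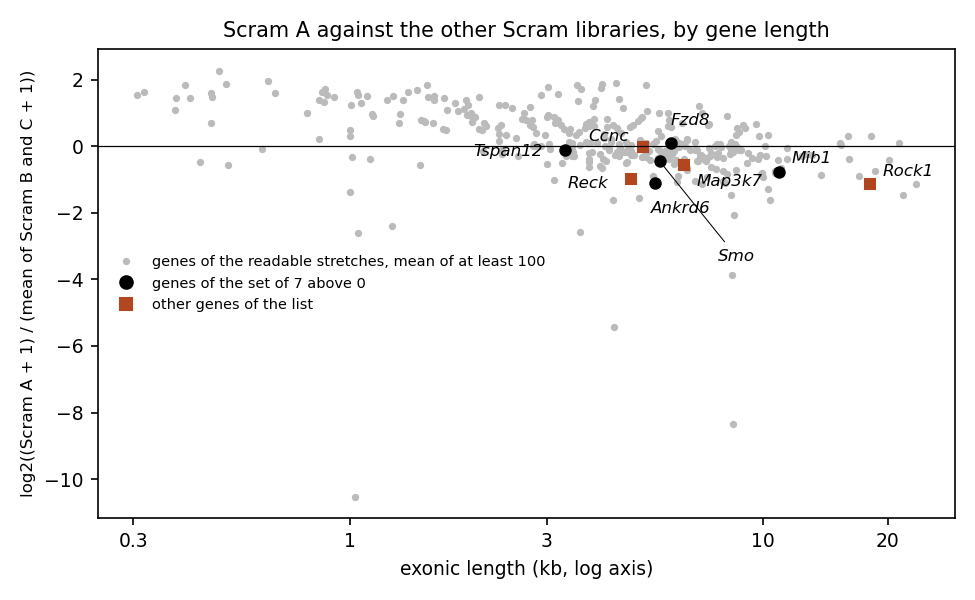
Log2 ratio of Scram A to the average of Scram B and Scram C, with 1 added to each (vertical axis), against exonic length (horizontal log axis) for 353 genes of the readable stretches. Of the 68 genes under 2000 bases, 58 lie above 0. Fzd8 (0.08) and Tspan12 (-0.11) lie near 0, and Ankrd6 (-1.12) and Rock1 (-1.15) lie low.

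A list of 228 Wnt, Hedgehog and Notch genes was searched for others that can be read. The stretches hold 12 of them, the 7 genes above and Reck, Rock1, Map3k7, Ctnnd2 and Ccnc. Over the 9 of these with a mean of at least 10, 3 rose, 3 fell and 3 did not pass, with a median log2 fold change of 0.24 against 0.25 over all features tested and -0.15 over those in the readable stretches. The 6 calls among 9 stand beside shares of 23.0% and 41.1% called in the same backgrounds. Of the 4 that are not among the 7, 1 rose, 1 fell and 2 did not pass. Reck, which encodes a membrane-anchored inhibitor of metalloproteases that also serves as a Wnt coreceptor component in brain vessels, had 683, 541 and 578 normalised reads in shSLX4IP A, B and C, against 152, 348 and 263 in Scram A, B and C. It rose with a log2 fold change of 1.31 (SE 0.34, limma adjusted p = 0.0437), and 8 of 17 other settings lost this call. Its values did not overlap, with Scram A the lowest.

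Ccnc, which encodes cyclin C of the Mediator kinase module that phosphorylates the Notch intracellular domain, had 1214, 954 and 911 normalised reads in shSLX4IP A, B and C, against 1584, 1539 and 1717 in Scram A, B and C. It fell with a log2 fold change of -0.66 (SE 0.17, limma adjusted p = 0.0402), and 9 of 17 other settings lost this call. Its exons share 276 bases with Tstd3 on the other strand, which had 839, 696 and 719 normalised reads in shSLX4IP A, B and C, against 615, 354 and 410 in Scram A, B and C. Map3k7, the TAK1 kinase gene of the non-canonical Wnt branch, had 2749, 2881 and 2750 in shSLX4IP A, B and C and 3214, 4988 and 4569 in Scram A, B and C. Its log2 fold change of -0.58 did not pass (adjusted p = 0.0831 in limma), but it passed in 3 of 17 other settings. These were without Scram A (limma adjusted p = 0.00132), with DESeq2 (adjusted p = 0.00673) and with the length trend removed (limma adjusted p = 0.00686). Rock1, a kinase gene of the polarity branch, had 4736, 4450 and 4375 in shSLX4IP A, B and C and 2255, 5298 and 4695 in Scram A, B and C. The groups overlapped, and its log2 fold change of 0.24 (limma adjusted p = 0.609) was -0.14 without Scram A. Ctnnd2, the delta-catenin gene, was listed at 0 except for 0.934 in Scram B and was not tested.

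**Figure D4:**
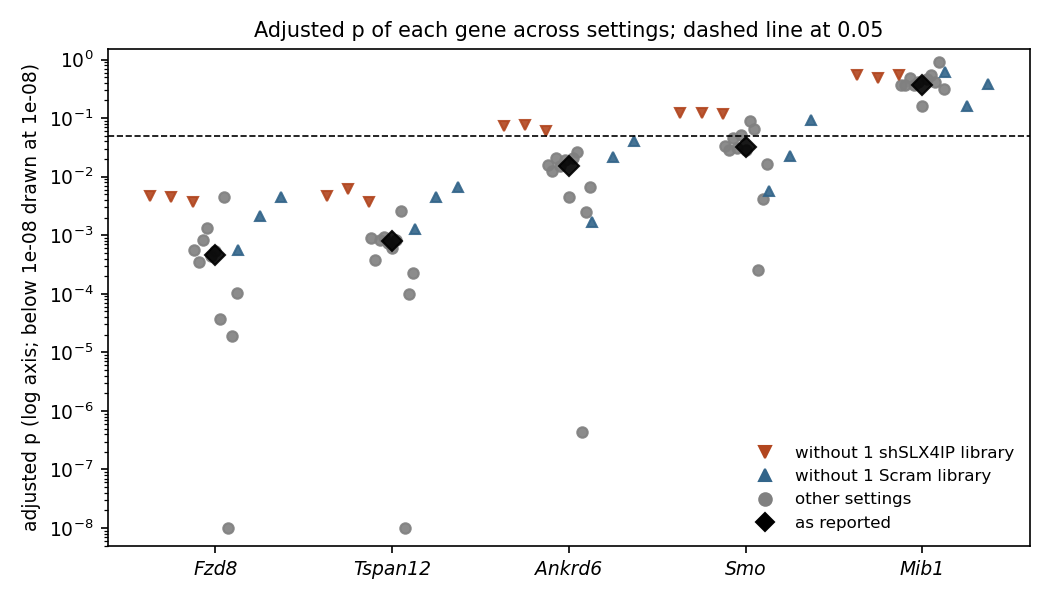
Adjusted p (vertical log axis, values below 1e-08 drawn there) of 5 genes as reported and in 17 other settings, with the threshold of 0.05 as a dashed line. Fzd8 and Tspan12 lie below the line in each setting, Ankrd6 lies above it where a shSLX4IP library was left out, Smo lies on both sides and Mib1 above.

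The readable genes whose values followed each of these genes most closely were found by Pearson's r of log2(value + 1) over the 6 libraries among 331 genes whose mean reached 50. Genes with Gm or Rik names were left out of the search. The libraries share 2 groups, so that a high r describes mainly the group difference. For Mib1, whose groups overlapped, it describes mainly the spread within Scram. The closest to Fzd8 were Car9 (r = 0.999), a carbonic anhydrase gene, and Otud6b (r = 0.999), a deubiquitinase gene. Tspan12 was followed by Tbc1d2 (r = 0.997) and by the caveolin gene Cav1 (r = 0.996). For Smo they were Samd9l (r = 0.999) and Zfp292 (r = 0.997), for Ankrd6 Fbxo10 (r = 0.998) and Zfp189 (r = 0.995), and for Mib1 Abca1 (r = 0.996) and Ptbp3 (r = 0.996). Abca1 shared the low Scram A of Mib1, with 2481, 2265 and 2288 normalised reads in shSLX4IP A, B and C and 722, 2510 and 1931 in Scram A, B and C.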

How the data were processed

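RNA of 6 libraries was sequenced after stranded poly(A) selection. Build GRCm38 and the tools STAR 2.7.7, fastp 0.19.5, DESeq2 1.22.1 and StringTie 2.1.7 are named in the submitters' processing notes. The sources used here do not give the annotation, the strand setting of the counting or each tool's role. The authors deposited a normalised signal, that is, counts of reads over a size factor for each library, as its name and the values themselves show. Between 99.98% and 100% of a library's values above 0 were whole multiples (to within 0.1) of the value of 1 read, which gave the whole reads.

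Identifiers were matched without version to GENCODE M21 (GRCm38), 52093 of 53647. Along each chromosome a protein-coding gene with a mean of at least 1000 scored 3 and any other -1, and maximal segments scoring at least 30 are the readable stretches, a rule chosen after values were seen. Tests used limma 3.58.1 in R 4.3.3 with an intensity trend, 2-sided and without a block, on log2 of the value plus 1. Alternatives were other constants, filters and scalings, edgeR 4.0.16 (1566 features called) and DESeq2 1.42.0 on the whole reads, removal of a length trend, and each library left out. The test was tested on simulated data in which no library was made to stand apart as Scram A does. The genes and lists were chosen with earlier results of these data known. Named genes are the 7, the list genes in the stretches, overlapping genes and the 2 most alike per gene. Gata6, Ptch1 and Gli1 were added after values were seen. Library letters are not tied to replicate numbers. The 95% intervals are limma's and rest on the spread between libraries. The limit of 3 reads covers counting error only.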

Additional observations from a re-analysis of the deposited data

How the results depend on the processing

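Fzd8 and Tspan12 passed in each of the 17 other settings, with log2 fold changes from -10.2 to -4.86 and from -7.45 to -6.16. Fzd8, listed at 0 in every shSLX4IP library, enters the filtered fits through Scram alone. Its fold change depends on the added constant or the model. Mib1 passed in none of the 17. Wnt2 and Wnt16 had no read in any library, so the 8 settings that apply to them could give only 0 and tested nothing. The 2 calls of higher genes were less stable. Smo lost its call with TMM factors (log2 fold change 0.73), with limma without a trend (0.72) and with edgeR (0.70), and ranged from 0.57 to 0.85 when libraries were left out. Ankrd6 ranged from 1.70 to 2.30 when libraries were left out. The count of the 7 genes called, 4 as reported, ranged from 2 to 4 when libraries were left out. The 3 higher genes of the list became 1 with TMM factors, 1 with limma without a trend, 1 with edgeR and 0 to 3 when libraries were left out. The cause was not tested. Fewer samples also enter the fit when a library is left out. Rock1, which did not pass in any setting, changed sign when the length trend was removed (-0.22) and ranged from -0.14 to 0.47 when libraries were left out. Over all features 1872 passed as reported and 3226 with DESeq2, 3468 without Scram A, 1130 without Scram C and 844 to 859 without a shSLX4IP library. Quantile normalization moved the median log2 fold change of all features from 0.25 to -0.0028. After it Smo was at 1.22, Ankrd6 at 1.81 and Mib1 at 0.79. Adjustment over readable features only was added after the data were seen and changed no call of the 7 genes. No paired analysis was possible because the library letters cannot be matched to the replicate numbers of the labels. Depth limits what can be said of Wnt2, Wnt16 and, in shSLX4IP, Fzd8 to levels above 3 reads in a library.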

Other observations

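The protein-coding genes next to these genes on the chromosome gave a mixed picture. Rragd, which encodes a GTPase of amino acid sensing at the lysosome and lies beside Ankrd6, had 2251, 1977 and 1924 normalised reads in shSLX4IP A, B and C, against 242, 253 and 286 in Scram, and rose with a log2 fold change of 2.97 (SE 0.16, limma adjusted p = 0.000404). Cped1, beside Wnt16, had 570, 631 and 644 normalised reads in shSLX4IP and was listed at 0 in every library of Scram. Its limma adjusted p was 0.000203, but Cped1 reached the mean needed for the test through shSLX4IP alone. Its fitted change rests on the constant added before the logarithm, so that this p-value supports nothing by itself. Tspan33, a tetraspanin gene beside Smo, rose to 615 ± 61.6 in shSLX4IP, against 26.3 ± 22.1 in Scram (SD, n = 3 each; log2 fold change 4.82, limma adjusted p = 0.00467). Ahcyl2, on the other side of Smo, was at 2485 ± 1388 in shSLX4IP and 780 ± 405 in Scram (SD, n = 3 each; limma adjusted p = 0.149), and Abhd3, beside Mib1, at 176 ± 8.92 in shSLX4IP and 156 ± 41.4 in Scram (SD, n = 3 each; limma adjusted p = 0.573). Lyrm2, on the other side of Ankrd6, was at 355 ± 18.0 in shSLX4IP and 286 ± 114 in Scram (SD, n = 3 each; limma adjusted p = 0.388). Ing3, a chromatin regulator gene next to Tspan12, was at 1305 ± 96.7 in shSLX4IP and 929 ± 79.3 in Scram (SD, n = 3 each) and did not pass (limma adjusted p = 0.0650). Wac, next to Fzd8, was at 5577 ± 172 in shSLX4IP and 5148 ± 857 in Scram (SD, n = 3 each; limma adjusted p = 0.553). St7, next to Wnt2, was at 1015 ± 116 in shSLX4IP and 1383 ± 328 in Scram (SD, n = 3 each; limma adjusted p = 0.199), and Fam3c, next to Wnt16, at 1467 ± 77.5 in shSLX4IP and 1877 ± 430 in Scram (SD, n = 3 each; limma adjusted p = 0.253). Gjd4 beside Fzd8, Kcnd2 beside Tspan12 and Asz1 beside Wnt2 were listed at 0 in all 6 libraries. These neighbours were chosen after their values were seen.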
